A study of Mus musculus with 48 samples.

Results

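Every construct of the series was sequenced in lysates numbered 6 to 10, and the account here sets the 5 input libraries of replicate 6 against the 18 input libraries of replicates 7 to 10. The libraries were chosen by replicate number, with results of these inputs already known, out of 48 libraries in all. CNOT7 input replicate 10 was left out, and D40A has no replicate 7. Replicate 6 holds 1 library of each construct, so construct was kept as a block in every fit.

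All libraries came from 4T1 cells, a mouse mammary tumor line labelled as strain BALB/cfC3H, carrying a lentiviral construct. The cDNA constructs were driven by the murine Pol2 promoter. The 5 constructs were FLAG-Cnot7 (a human CNOT7 cDNA), the same cDNA with the D40A amino acid substitution (deadenylase-inactive), E247A/Y260A (which does not bind TOB1), M141R (which does not bind CNOT1), and the 8166-M24-658 control vector with no CNOT7. Input is RNA kept back from the cleared lysate. The 24 RIP libraries, which the choice did not use, hold RNA brought down from the same numbered lysates with an anti-FLAG antibody without crosslinking. The replicates are called biological in the series' design, and no label says what else a number stands for.

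Some of the models that differed in replicate 6 were antisense, satellite or mitochondrial, and many others were ordinary protein-coding models. Natural antisense transcripts are RNAs read from the strand opposite a known gene, and many are unspliced and kept in the nucleus. The mouse major satellite is a tandem repeat of pericentromeric chromatin that sits near the centromere of most chromosomes. Mitochondrial DNA is read from both strands as long precursors, and nearly all protein genes lie on 1 strand while mt-Nd6 and a set of tRNAs lie on the other.

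A group of models far lower in replicate 6 shared a stretch of sequence, which is shown because the results for them turn on it. From the transcript of Gm10800 (bases 167 to 196, counted from the 5′ end, minus strand of chromosome 2, GENCODE M21 on build GRCm38), the run reads 5′ to 3′ as follows, with no part in capitals:

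shared run: cagtgtgcatttctcatttttcacgttttt

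This run of 30 bases is found in 13 of the 26555 models that could be searched, and its letters are those of the major satellite. The 13 models lie on chromosome 9 between 3000282 and 3038316 (Gm10715, Gm10717, Gm10718, Gm10719, Gm10720, Gm10721, Gm10722, Gm11168, Gm17535 and Gm26870), on chromosome 2 between 98662237 and 98667301 (Gm10800 and Gm10801) and on chromosome 14 between 19415857 and 19418930 (Gm21738). Gm26870 holds it in antisense orientation. Reads from such near-identical copies can be split among them in counting, so the single models are uncertain and their sum is given too.

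Library facts were as follows. Inputs held 467473 to 617222 counts in replicate 6 and 337861 to 826768 in replicates 7 to 10. RIP libraries held 3235235 to 4185604 and 1305627 to 10719137 counts. The 13 models with most RIP counts took 14.48 to 21.12% of input counts in replicate 6 and 8.406 to 16.97% in the other inputs. CNOT7 input replicate 10 stood apart with 1.595% and antisense models at 5.482% of its counts outside those 13. Of the 11 mammary carcinoma epithelium markers, 5 passed the filter on low counts and 0 were past the threshold, while Krt8, a luminal keratin named after its values were seen, held 1 to 4 counts in replicate 6 and 0 to 6 in the other inputs. Fibroblast, endothelium and adipocyte markers had 0 tested models. Among leukocyte markers 1 of 7 was tested, Csf1r, which was higher in replicate 6 and whose exons overlap Hmgxb3 on the opposite strand. Levels are CPM, counts scaled to the TMM-adjusted library size, and log2 fold changes are replicate 6 over replicates 7 to 10. Since replicate 6 was chosen on the inputs, input differences are a description without a p-value, and tests are given only for the RIP libraries and for replicates 7 to 10 among themselves. A replicate number is shared by all 5 constructs, while the fits treat libraries of 1 number as independent within construct, so the RIP p-values measure the spread between libraries and are too small as tests of number. A RIP test is given only for models that the lower of the 2 groups would carry past the filter by itself. With bulk lysates, fewer cells holding an RNA and less of it per cell cannot be told apart.

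The strand on which reads were counted bears on every model that has a gene opposite it. The library kit keeps strand, and the setting used in counting is not given in the sources used here, so the strands may have been exchanged in the counts. Actb and Gapdh, abundant in nearly every cell and named after their values were seen, held 0 to 38 and 0 to 9 counts in any input. Whether the strands were exchanged was not tested. Model names, biotypes and strands are therefore those of the annotation, and counts listed under a model may be reads of the gene opposite it.

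In the inputs, 3558 of 26899 models passed the filter, and 1345 of them (37.8%) passed an adjusted p of 0.05 in edgeR's quasi-likelihood fit, used here only to list them. No test is drawn from it. Of the 1345 models, 614 (17.3%) were higher and 731 (20.5%) lower in replicate 6. Without the M141R input of replicate 6 there were 486 higher and 437 lower, and without the vector input 497 and 476. Which direction had more models thus depended on single libraries. In 352 higher models (9.89%) replicate 6 lay above every other library of its construct in all 5 constructs, and in 168 lower models (4.72%) below every one. Models named for their input change were picked from these sets, so their lack of overlap in input supports nothing. The median log2 fold change over all tested models was -0.20.

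Models annotated on the strand opposite a known gene made up much of the higher set, and with strands exchanged their counts would be those of the known genes. Of 613 tested models with the antisense biotype, 244 were higher and 33 lower, with a median log2 fold change of 0.41. Among protein-coding models the counts were 258 higher and 618 lower of 2473. Exons overlapped an exon of an opposite-strand gene in 65.08% of the tested models, in 86.59% of the higher and in 48.62% of the lower models. For single constructs the measure was not the fitted fold change. It was replicate 6 minus the mean of the construct's other libraries, in log2 CPM with a small offset. On it the antisense median lay between 0.38 and 0.58 in each construct, against -0.12 to -0.03 over all models. The antisense class was picked after values were seen, so it carries no test.

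The share of counts in antisense models, outside the 13 models above, separated replicate 6 from the rest. It was 23.45% in the CNOT7 input of replicate 6, 20.73% in D40A, 19.84% in E247A/Y260A, 23.12% in M141R and 23.05% in the vector. In replicates 7 to 10 it ran from 8.806 to 18.56%. No input of replicate 6 overlapped the others, and among those the order by number was 8 and 7 above 9 and 10. In the RIP libraries, which the choice did not use, the share was 24.71 to 25.92% in replicate 6 and 11.08 to 22.20% in the others, again without overlap. The same antisense models summed in CPM overlapped in the RIP libraries, at 4329 to 4422 in replicate 6 and 4326 to 5014 in the rest, so the separation in RIP is one of share outside the 13 models.

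**Figure D1:**
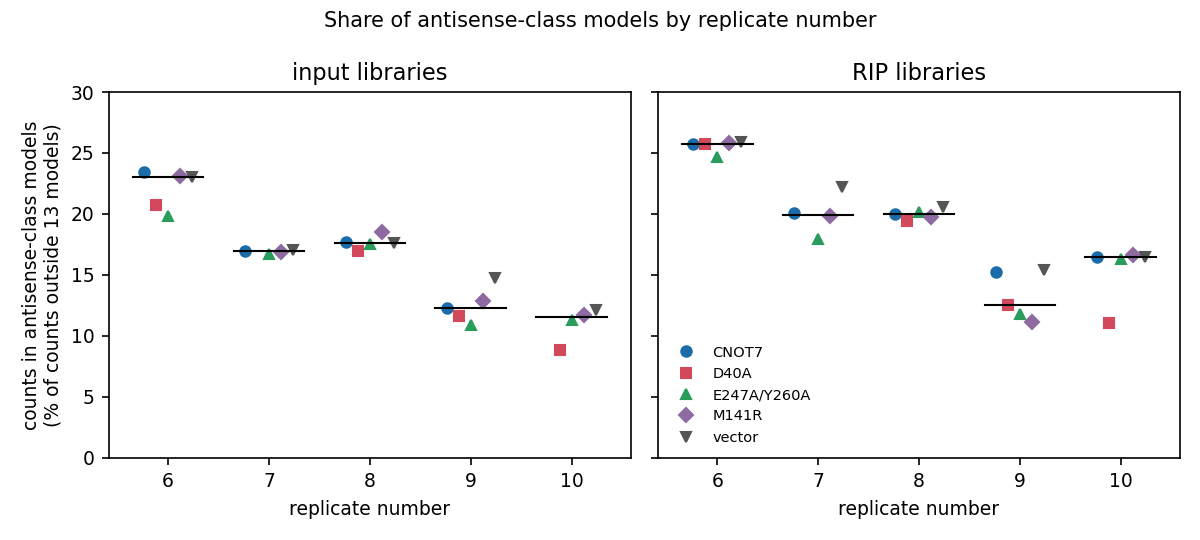
Percent of counts outside the 13 most counted RIP models that fell in antisense-biotype models (y axis) by replicate number (x axis), for inputs on the left and RIP libraries on the right; points are libraries, coloured by construct, and bars are medians. The 5 libraries of replicate 6 sit highest in each panel, at 19.84 to 23.45% in inputs and 24.71 to 25.92% in RIP.

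One of these was Junos (chr4:95051534-95167318, plus strand, GRCm38), a noncoding gene that overlaps Jun, the gene of an AP-1 transcription factor, on the opposite strand. In replicate 6 its level was 532.7 CPM in CNOT7, 512.7 in D40A, 460.2 in E247A/Y260A, 500.1 in M141R and 469.5 in vector input. The other 18 inputs ran from 41.82 through a median of 109.0 to 190.2 CPM. All 5 libraries of replicate 6 lay above all 18 others, with an input log2 fold change of 2.21 (SE 0.23). Jun itself, named after its values were seen, held 0 to 2 counts in every input, and the counts under Junos may be reads of Jun if strands were exchanged. In RIP, Junos reached 11.67 to 15.59 CPM in replicate 6 and 1.827 to 6.948 in the other 19 libraries, without overlap, and it rose with a log2 fold change of 1.54 (SE 0.21, edgeR adjusted p = 4.524e-05).

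Gm15958, an antisense model opposite Ccbe1, a gene of lymphatic vessel growth, followed the same order. Replicate 6 inputs held 1472, 1416, 1280, 1135 and 1380 CPM in the order CNOT7, D40A, E247A/Y260A, M141R and vector, which is the order used from here on. The others ran from 135.3 through 325.8 to 468.1 CPM. The groups did not overlap in input, nor in RIP, where the log2 fold change was 1.51 (SE 0.19, edgeR adjusted p = 2.371e-05).

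Further models of this kind passed in both sets of libraries. 4930558J22Rik, opposite the histone gene Hist1h4b, stood at 1700, 1261, 1173, 1676 and 1102 CPM against 97.59 to 520.1 in the other inputs, and rose in RIP by 1.07 (SE 0.28, edgeR adjusted p = 0.005323). Gm36992, opposite Cep170, whose product binds centrioles and microtubules, stood at 922.7, 914.9, 645.2, 827.2 and 872.7 CPM against 41.82 to 510.0, with a RIP log2 fold change of 1.35 (SE 0.27, adjusted p = 0.001074). Neither overlapped in input. Gm15441, opposite Txnip, a thioredoxin-binding protein that responds to glucose, had 3444 to 4284 CPM in replicate 6 and 362.5 to 2707 elsewhere, and its RIP log2 fold change was 1.23 (SE 0.30, adjusted p = 0.003466). LOC102637250 (opposite Smtn) and Gm12992 (opposite Srsf4, a splicing factor) were also higher in input and rose in RIP, by 1.21 and 0.97 on the log2 scale. Gm10390 (opposite Rbm19) and 4932443L11Rik (opposite Evi5l) were higher in input, the latter with 1 of the other libraries above the lowest of replicate 6. In RIP these 2 passed the filter through replicate 6, at 6.496 to 8.865 CPM against 1.111 to 6.899 for Gm10390 and 4.925 to 9.992 against 1.178 to 5.961 for 4932443L11Rik.

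Protein-coding models were also among the higher ones, several with exons that overlap a gene on the other strand. Psmd3, a subunit of the proteasome lid, stood at 317.5, 256.3, 181.7, 235.9 and 246.1 CPM against 36.25 to 161.2, and at 3.032 to 5.319 CPM in RIP against 0.7573 to 3.335. Cd180, a Toll-like receptor homologue of B cells that overlaps Mast4, stood at 607.9 to 852.3 CPM against 136.6 to 368.9, and rose in RIP by 0.91 (SE 0.19, edgeR adjusted p = 0.001368). Cdc23, a subunit of the anaphase-promoting complex that overlaps Kif20a, stood at 89.5 to 151.6 CPM against 14.92 to 78.37. In RIP it stood at 3.074 to 4.371 CPM against 0 to 4.725, and like Psmd3 it passed the filter through replicate 6. Tubgcp6, of the gamma-tubulin ring, was higher in input (151.4 to 191.9 CPM against 29.59 to 106.4), and its RIP log2 fold change was 0.84 (SE 0.35, adjusted p = 0.06442). For Apoh and Evpl all 5 inputs of replicate 6 lay above all 18 others, and for Pigt they did not. These 3 were not tested in RIP.

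**Figure D2:**
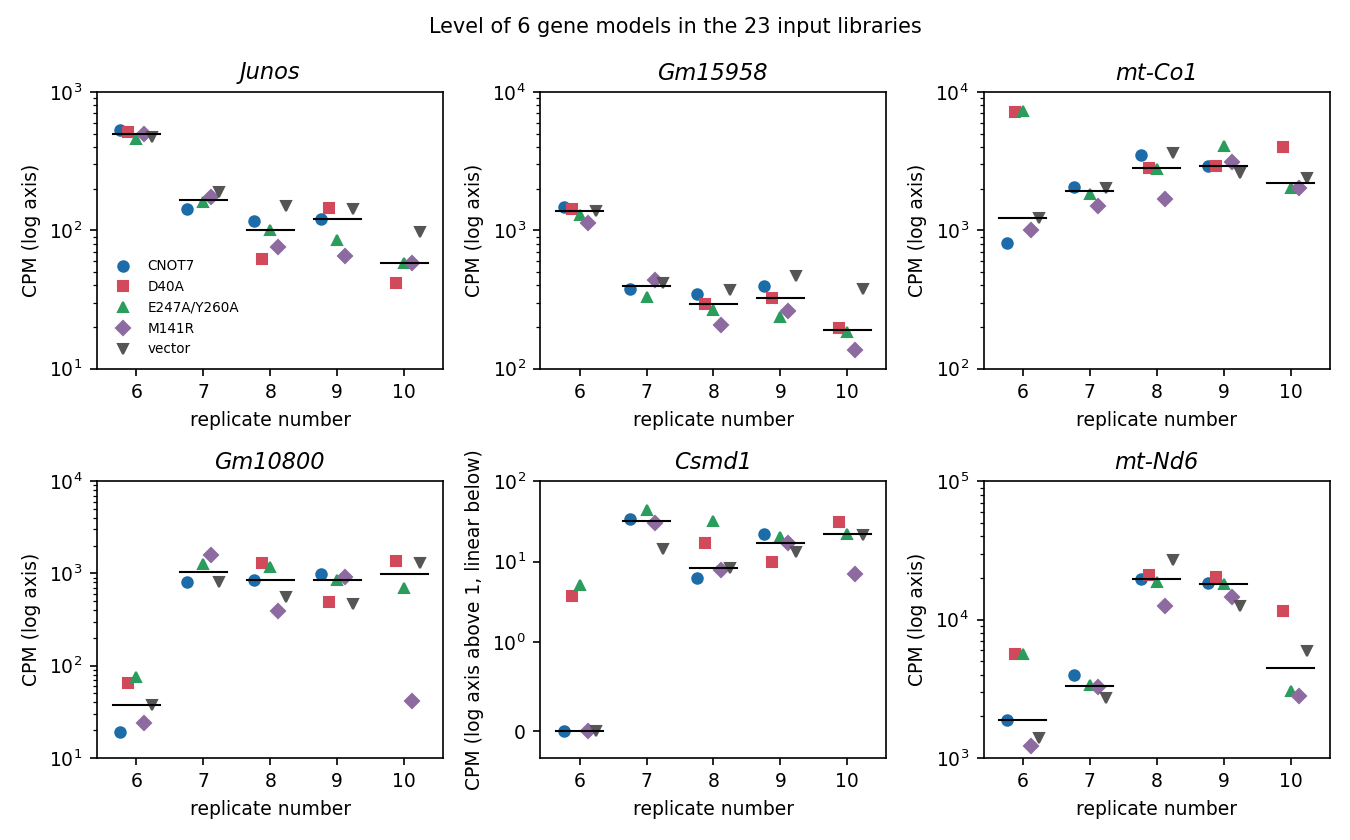
CPM on a log axis (linear under 1 for Csmd1) of 6 models in the 23 inputs by replicate number; point colours are constructs and bars are medians. Junos and Gm15958 are highest in replicate 6, at 460.2 to 532.7 and 1135 to 1472 CPM, while Gm10800 and Csmd1 are lowest there, and mt-Co1 lies on both sides of the other libraries.

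Models holding the major satellite run stood low in replicate 6, and were grouped after their values were seen. All 8 that passed the filter in input were lower, with a median log2 fold change of -3.98. Since a model absent from replicate 6 can pass the filter only through the other libraries, this count supports nothing by itself. Summed over all 13 models, replicate 6 inputs held 53.27 to 186.8 CPM and the others 166.3 to 3276. The overlap came from M141R input replicate 10, at 166.3 CPM, which sat with replicate 6 rather than with the others.

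Gm10800 (chr2:98666547-98667301, minus strand) stood at 19.18, 65.49, 74.71, 23.59 and 37.86 CPM in replicate 6. The other inputs ran from 40.87 through 856.2 to 1577 CPM, and 17 of 18 lay above all of replicate 6. In RIP it stood at 7.078 to 17.73 CPM against 36.51 to 707.3 and fell, with a log2 fold change of -4.21 (SE 0.92, edgeR adjusted p = 0.001587). Its neighbour Gm10801 stood at 2.706 to 5.27 CPM in RIP against 16.49 to 266.6, and Gm26870 at 1.873 to 3.94 against 12.96 to 616.5. In RIP the groups did not overlap for these 3 models, the last 2 of which passed the filter through the other numbers. All 9 run-holding models tested in RIP were lower, a count that supports nothing since they can pass the filter through the other numbers, and 2 were tested with at least 10 counts in every library. The sum of all 13 was 14.36 to 29.35 CPM in replicate 6 against 71.45 to 2011. RIP replicate 9 held the most, at 982.1 to 2011 CPM, and without replicate 9 of any construct 6 of 6 tested models were lower, with a median of -2.89.

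Among models that passed the input filter, those with both long exons and a long span were more often called lower. Of 27 tested models that span over 1 Mb, 17 were lower and 3 higher in input, and of 113 that span 300 kb to 1 Mb, 55 were lower and 4 higher. Over all tested models 20.5% were lower and 17.3% higher. Lower models made up 62.96% of the longest class, 48.67% of the next, 13.55% of models of 1 to 10 kb and 20.72% of those up to 1 kb. The median over 1 Mb was -1.62 with all libraries, and -1.81 to -0.65 without 1 replicate number at a time. A long model that is low in replicate 6 can pass the filter through the other numbers, so these counts support nothing by themselves. Among models with at least 10 counts in every input, only 9 spanned over 1 Mb, 3 of them higher and 3 lower, and their median was 0.15. Of the 49 such models over 300 kb, 24 were lower and 5 higher, with a median of -0.645. The summed input level of the 587 models over 300 kb, outside those most counted in RIP, overlapped between the groups. It was 31290 to 33360 CPM in replicate 6 and 26630 to 35960 in the other inputs. Higher models went from 25.1% at 1 to 10 kb to 3.54% at 300 kb to 1 Mb, and to 11.11% over 1 Mb. Exon length moved with span. Among models with over 4 kb of exons the median was -0.62 in the 459 that span over 100 kb and -0.30 in the 1222 of shorter span. Among models with up to 4 kb of exons, the 82 that span over 100 kb had 18 higher, 16 lower and a median of 0.11, against 401 higher, 272 lower and a median of 0.005 in the 1762 of shorter span. In RIP the same classes had 11 of 47 lower with a median of -0.14 and 96 of 592 lower with a median of 0.01. The span classes were picked after values were seen.

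**Figure D3:**
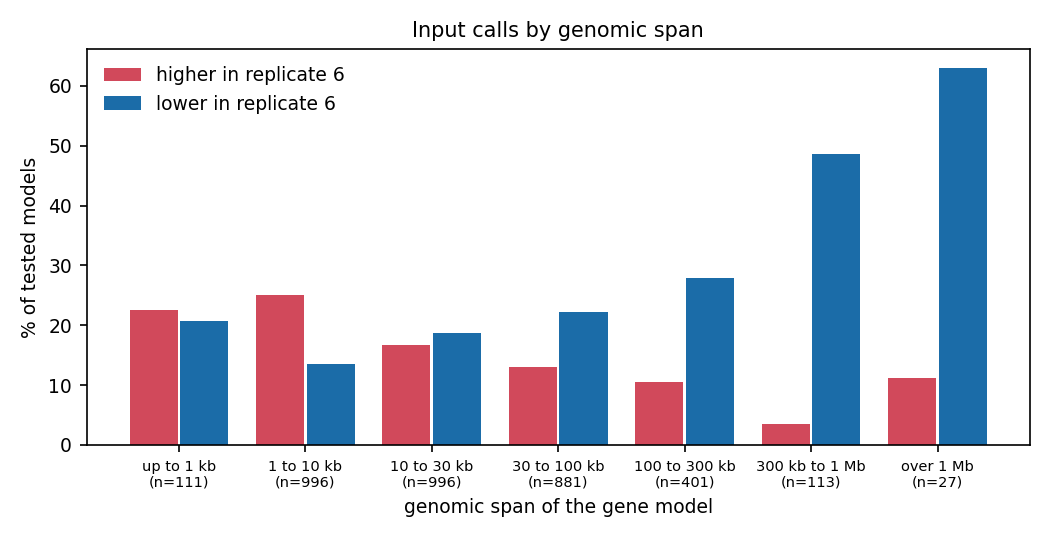
Percent of tested input models called higher (red) or lower (blue) in replicate 6 (y axis), by genomic span of the model in GRCm38 (x axis, with the number tested). The share called lower is 20.72% up to 1 kb, and grows from 13.55% at 1 to 10 kb to 62.96% over 1 Mb.

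Csmd1 (chr8:15892537-17535586, 1643050 bases, minus strand), a transmembrane protein that limits complement, had 0, 2, 3, 0 and 0 counts in the inputs of replicate 6 and 3 to 30 (median 7.5) in the others. Its pooled input ratio was 0.08789 (exact 95% interval 0.02821 to 0.2087, counting error only). In RIP it had 2, 0, 0, 0 and 0 counts against 1 to 116, a pooled ratio of 0.01351 (0.001629 to 0.04917). It passed the RIP filter through replicate 9, where its mean level was 15.15 CPM, against 1.724 to 2.663 in replicates 7, 8 and 10, so its RIP value is a description with no test. The RIP groups overlapped in 1 library. Celf2, a splicing and RNA-stability factor that spans 969870 bases, had 0 to 7 counts against 3 to 28 in input, and 0 to 2 against 0 to 117 in RIP, where it too passed the filter through replicate 9.

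Over the 56 models beyond 1 Mb outside the 13 most counted, the summed level overlapped in input, at 1948 to 2276 CPM in replicate 6 against 1673 to 2904. In RIP it stood at 51.83 to 58.25 CPM against 68.31 to 812.6 on the TMM scale. Protein-coding models as a whole were lower on that scale too, at 9061 to 9519 CPM against 13300 to 28420. Scaled to the counts outside the 13 models, the long-gene sum was 3025 to 3339 CPM in replicate 6 and 3092 to 19950 in the others, and the groups overlapped. Of 36 models over 1 Mb tested in RIP, 31 were lower, beside 26.6% over all models, and without replicate 9 only 9 were tested, of which 4 were lower, with a median of 0.02. Most of the 36 thus passed the filter through replicate 9, and their count supports nothing.

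Other lower models were ordinary mRNAs and an abundant nuclear RNA. Malat1, a nuclear speckle noncoding RNA, stood at 63.93, 78.58, 105.3, 67.62 and 66.26 CPM in replicate 6, against 93.06 through 223.2 to 1062 in the other inputs. Replicate 10 was highest, with a mean of 947.8 CPM. In RIP it stood at 0 to 1.299 CPM against 0.5558 to 27.44, and passed the filter through the other numbers. Neb (nebulin, a giant protein of thin muscle filaments) had 3.396 to 10.65 CPM against 25.61 to 132.5, and Nexn (an actin-binding protein) 5.679 to 15.28 against 16.62 to 175.7. Ccdc39 (ciliary dynein assembly), Acvr2a (an activin receptor) and Rfc4 (a clamp loader of DNA replication) likewise did not overlap, while Snx10, Nfe2l3, Cd302 and Tmem126a did. All were picked because replicate 6 lay below every other library of its construct, as in 4.72% of tested models. Their lack of overlap therefore supports nothing, and models this low can pass the input filter through the other numbers. These 9 mRNAs were not tested in RIP, where a library held 0 to 27 counts of any of them.

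Mitochondrial models split by annotated strand, which may be exchanged in the counts as above. On the minus strand, where mt-Nd6 and tRNAs lie, all 9 models tested in input were lower, with a median log2 fold change of -2.69. On the log2 CPM measure for single constructs used above, the medians in the same order were -3.209, -1.974, -0.522, -2.999 and -3.371. E247A/Y260A thus showed the smallest difference. On the plus strand 5 of 20 were lower, 0 higher, beside 20.5% and 17.3% over all models, and the median was -0.41. The lower count was 1 of 20 without replicate 9 and 1 of 20 without the CNOT7 construct, with a median of -0.03 in the latter, and without the construct block 2 were higher and 3 lower. Without replicate 10 the lower count was 8 of 20 (median -0.598), and without E247A/Y260A it was 7 of 20 (median -0.917). mt-Nd6 (a subunit of complex I) stood at 1884, 5669, 5663, 1211 and 1386 CPM in replicate 6 and at 2692 through 12490 to 26820 in the others. The other inputs themselves were spread, with means of 3314 CPM in replicate 7, 19760 in 8, 16800 in 9 and 5839 in 10. mt-Ts1, the serine tRNA of the same strand, stood at 1518 to 8531 CPM against 5888 to 56630, and 17 of 18 others lay above all of replicate 6.

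Within replicate 6, D40A and E247A/Y260A stood apart from the other 3 constructs for these models. mt-Co1 (subunit 1 of cytochrome c oxidase, named after its values were seen) stood at 814.0 CPM in CNOT7, 7220 in D40A, 7347 in E247A/Y260A, 1011 in M141R and 1217 in the vector. The 18 other inputs ran from 1494 to 4053 CPM. D40A and E247A/Y260A thus lay above all of them and the other 3 below all of them. The same held for mt-Nd5 (1012, 9636, 11390, 1091 and 1287 CPM against 2210 to 7940) and mt-Cytb, and for 3 of all 3558 tested models in total, every one of them on the mitochondrial plus strand. The pattern was drawn from these same values, with 1 library per construct, so this count supports nothing. On the log2 CPM measure for single constructs, the plus-strand median was -1.70, 0.50, 1.02, -1.05 and -1.28. Gm10800 and Csmd1 were also highest in D40A and E247A/Y260A within replicate 6, but at low counts. Csmd1 had 0, 2, 3, 0 and 0 counts and Gm10800 had 9, 35, 44, 15 and 20. Neither lay on both sides of the other inputs.

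In the RIP libraries this split was not seen in mt-Co1, which stood at 18.23, 19.50, 16.46, 26.23 and 11.38 CPM in replicate 6. mt-Nd6 fell in RIP, at 10.32 to 17.93 CPM against 19.45 to 352.0 with no overlap (-2.26, SE 0.47, edgeR adjusted p = 0.001216). mt-Nd5 (-1.91, SE 0.50, adjusted p = 0.004842) and the ribosomal RNA mt-Rnr2 (-2.49, SE 0.62, adjusted p = 0.003713) fell as well. As shares of the counts outside the 13 models the strands overlapped between groups in RIP, at 0.1543 to 0.2478% against 0.1969 to 1.845% on the minus strand and 0.8485 to 1.204% against 0.9358 to 19.84% on the plus strand. On the plus strand 12 of 15 RIP-tested models were lower, beside 26.6% over all models tested in RIP. The count became 7 with library size alone as the scale, 5 without the D40A construct and 3 of 13 without replicate 9. It became 15 of 15 without the construct block or without replicate 8, and 16 of 16 without replicate 10. On the minus strand 2 of 6 were lower.

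Lists of genes by cell process are given by their counts, beside the 17.3% higher and 20.5% lower over all tested models. Of 18 cytosolic ribosomal protein models in input, 0 were higher and 2 lower, Rps2 and Rpl23. Rps2 also fell in RIP (-1.34, SE 0.32, edgeR adjusted p = 0.002867), at 7.289 to 9.528 CPM against 9.666 to 57.08. Of 16 translation factor models 4 were higher, among them Eif5b and Eif2d, and 2 lower. Neither of those named passed in RIP (adjusted p = 0.6436 and 0.1353). Nuclear oxidative phosphorylation had 1 higher (Cox6c) and 3 lower of 13, the proteasome 2 and 2 of 7, and pre-mRNA splicing 0 and 1 of 10. Extracellular matrix and integrins had 0 and 0 of 13, with a median log2 fold change of -0.30, and the mitotic cell cycle 0 and 0 of 6. Among stress and signalling lists, heat shock had 0 and 0 of 5, immediate early genes 0 and 1 of 4 (Fosl1), interferon-stimulated genes 0 and 1 of 4 (B2m), p53 targets 0 and 1 of 4, and NF-kB targets 1 (Cxcl1) and 1 (Birc3) of 5. Hypoxia and glycolysis had 1 and 0 of 4, cholesterol synthesis 0 and 1 of 3, and replication-dependent histones and small nucleolar RNAs 0 tested models.

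Actin cytoskeleton models are given for both sets of libraries. In input 2 were higher, Zyx (a focal adhesion protein) among them, and 3 lower of 13. In RIP 9 of 11 were lower and 0 higher, beside 26.6% and 9.22% over all models. Members can pass the RIP filter through replicate 9, so this count supports nothing. Myh10, a nonmuscle myosin heavy chain, stood at 50.32 to 88.3 CPM in input against 36.25 to 127.8, and at 0.5837 to 2.165 CPM in RIP against 0.9133 to 7.78, where it passed the filter through replicate 9. The chaperones Hspa5 and Canx of the unfolded protein list had input log2 fold changes of -0.06 and -0.15, and Fn1 (fibronectin) 0.23. In RIP Canx stood at 0 to 2.599 CPM against 1.089 to 13.44 and Fn1 at 0.2919 to 2.599 against 0.5553 to 21.57. These 3 also passed the RIP filter through the other numbers. For Fn1 and Myh10 RIP replicate 9 held the highest mean of the 5 numbers, at 13.99 and 5.489 CPM.

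Of 11 tested CCR4-NOT complex and partner models, 2 were higher and 4 lower in input, beside 17.3% and 20.5% over all models. Cnot7, the endogenous mouse gene of the deadenylase, stood at 302.6, 275.0, 259.8, 279.9 and 196.9 CPM in replicate 6 against 104.9 through 138.5 to 177.4, with no overlap. The vector library, which carries no CNOT7 construct, was the lowest of the 5 and lay above all 18 others. What the higher counts come from was not tested. The exons of Cnot7 overlap Zdhhc2 on the opposite strand, and the counts may be of either gene. In RIP Cnot7 stood at 1.516 to 2.914 CPM in replicate 6 and 0 to 3.382 in the others, and it was not tested. Cpeb3, an mRNA-binding translational regulator, was the other higher member (314.1 to 473.4 CPM against 106.0 to 317.3). Cnot1, the scaffold, stood at 14.92, 13.10, 10.19, 17.30 and 37.86 CPM against 11.65 to 53.62.

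Near the threshold, the 3 models just inside were Cul5, Apom and Gm26690 with log2 fold changes of -1.01, -1.65 and -1.63. The 3 just outside were Clta, Tmem243 and Sirt1 with -0.95, -0.77 and -1.0. All 6 overlapped between the groups.

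Across all models, the RIP libraries were tested for the same contrast. Of 1139 models tested, 408 (35.8%) passed, 105 higher (9.22%) and 303 lower (26.6%), with a median log2 fold change of -0.10. With library size alone as the scale the median was 0.21 and the split 284 higher and 210 lower, so the balance of directions in RIP depends on the scaling. All 105 higher models and 210 of the 303 lower ones kept their call there and 0 changed direction. Over all 1097 models tested in both sets of libraries, 751 had the same sign. Of the 614 models higher in input, 400 were tested in RIP, 313 had the same sign, 90 passed in the same direction and 12 in the opposite one. Of the 731 lower in input, 127 were tested, 124 had the same sign, 107 passed in the same direction and 0 in the opposite one. A model low in replicate 6 can enter the RIP test through the other numbers, so the count of 107 supports nothing. Without replicate 9, 174 and not 303 models were lower, but this changes both the models tested, 1016 and not 1139, and the libraries compared. A model high in replicate 6 can likewise enter through replicate 6. The RIP libraries came from the same numbered lysates as the inputs, so these are further libraries and not further lysates.

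**Figure D4:**
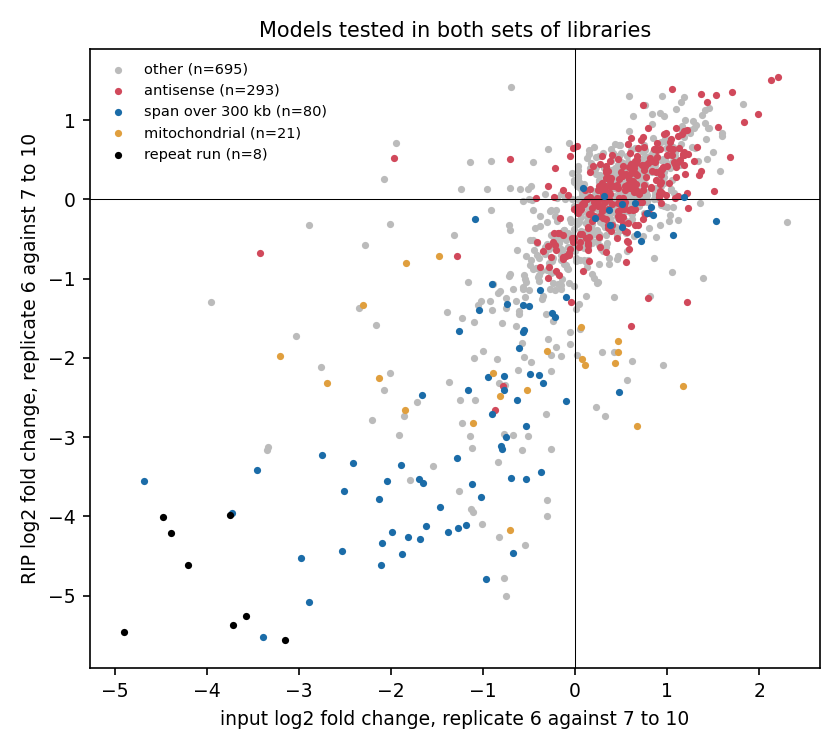
Log2 fold change of replicate 6 over replicates 7 to 10 in input (x axis) and RIP (y axis) for the 1097 models tested in both; colours mark antisense models, spans over 300 kb, mitochondrial models and holders of the repeat run. The 8 run-holding models lie at the lower left, with medians of -3.98 in input and -4.94 in RIP, and Junos and Gm15958 at the upper right.

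Not every antisense model rose in RIP. Plet1os stood at 1426, 1501, 1290, 1508 and 2062 CPM in input against 1151 to 2297, and in RIP it fell by 0.90 on the log2 scale (SE 0.19, edgeR adjusted p = 0.001216). Rab10os, opposite the vesicle GTPase Rab10, fell by 0.73 (SE 0.15, adjusted p = 0.001074), with RIP levels of 18.68 to 27.29 CPM against 28.38 to 51.20 and no overlap. In RIP 39 of 293 antisense models were higher and 26 lower, beside 9.22% and 26.6% over all models, and with library size alone as the scale 102 were higher and 8 lower. Among opposite-strand genes named os, 20 were higher and 8 lower of 77 in input, beside 17.3% and 20.5% over all models, and 5 and 3 of 30 in RIP, beside the same 9.22% and 26.6%.

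Whole-library measures in RIP were compared with an exact permutation of which library of each construct is replicate 6 (2500 arrangements, two-sided, smallest possible p of 0.0004). The percent of counts in models without a symbol, outside the 13 models, was higher by 4.01 points in replicate 6 in 5 of 5 constructs (exact p = 0.0164, adjusted over 5 measures 0.082). The number of models with a count was lower by 3573 in 5 of 5 (exact p = 0.0584, adjusted 0.1). The share of the 13 models was higher by 0.673 points in 5 of 5 (exact p = 0.06, adjusted 0.1). Total counts (exact p = 0.4556) and counts outside the 13 models (exact p = 0.9412) showed no difference past the threshold. None of the 5 measures passed after adjustment. The arrangements take each construct as independent although all constructs share a number, so these p-values are too small as tests of number.

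Replicate number moved models beyond replicate 6 as well. Among replicates 7 to 10 alone, 2338 of 3629 models (64.4%) passed edgeR's F test for number, and 724 (23.5%) did so without replicate 10. The smallest adjusted p-values were those of Harbi1 (1.167e-12), Lztr1 (4.313e-12), Arl5c (4.313e-12), Gm26540 (4.514e-12) and Napsa (4.749e-12). Harbi1, a transposase-derived gene, had mean levels of 239.8 CPM in replicate 7, 41.11 in 8, 484.7 in 9 and 183.7 in 10. Lztr1, an adaptor that turns over RAS proteins, had 424.9, 119.2, 943.6 and 210.8 CPM. All 5 were highest in replicate 9 and lowest in replicate 8. Models higher in replicate 6 passed among replicates 7 to 10 in 67.7% of cases, lower models in 67.9% and models not called in 62.5%.

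With each number set against the mean of the other 4 in 1 fit of the 3558 models, replicate 6 had 946 higher and 1098 lower models, replicate 7 had 303 and 70, replicate 8 had 460 and 382, replicate 9 had 562 and 519, and replicate 10 had 1158 and 933. These contrasts share libraries, so their counts are only set side by side. Replicate 6 thus stood beside replicate 10 in number of calls. By class they differed: antisense models had medians of 0.46 in replicate 6, 0.08 in 7, 0.01 in 8, -0.27 in 9 and -0.27 in 10. The run-holding models had -3.97 in replicate 6 and 0.51 to 1.67 in the other numbers. Junos had input means of 166.8, 101.4, 111.9 and 63.79 CPM in replicates 7, 8, 9 and 10, all under the 460.2 CPM that was the lowest value of replicate 6.

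**Figure D5:**
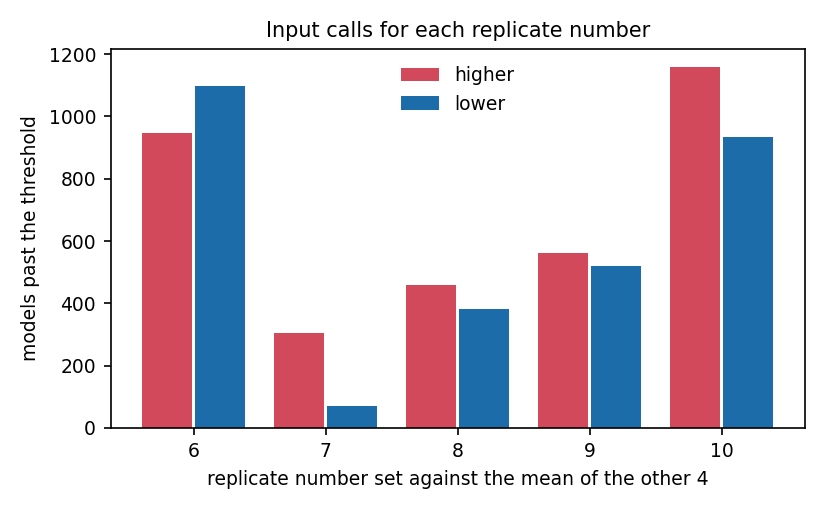
Number of input models past the threshold (y axis) for each replicate number set against the mean of the other 4 (x axis), higher in red and lower in blue. Replicates 6 and 10 have the most, with 946 and 1098 for replicate 6 and 1158 and 933 for replicate 10.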

How the data were processed

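Input and anti-FLAG RIP RNA of 5 constructs was sequenced in 48 libraries. For 26899 Ensembl gene models, the deposited values are raw read counts, not normalized by the authors. The submitters' processing notes name BWA, HTSeq and mm9, with no versions. The library kit was directional, and the counting strand is not given in the sources used here, so reads of overlapping opposite-strand genes may not have been told apart, or their strands may be exchanged. In all, 0 sample columns were left unmapped.

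Models were filtered with filterByExpr, scaled with TMM and fitted in edgeR (version 4.0.16, R 4.3.3) by quasi-likelihood F tests with construct as a block, two-sided, with Benjamini-Hochberg adjustment at 0.05. Inputs totalled 337861 to 826768 counts and RIP libraries 1305627 to 10719137. Intervals are exact at 95% and, since reads carry no molecular identifiers, cover counting error only. Library measures were compared by exact permutation within construct (Python 3.11.15, with scipy 1.17.1, pandas 2.3.3 and numpy 2.4.6, and matplotlib 3.10.9 for the plots). Positions, biotypes and strands come from GENCODE M21 on GRCm38 by identifier (26555 matched, 344 not), which is not the authors' build, so positions are those of M21 only. Of 8719 models without a symbol in the table, 8422 were named from M21. The fits were tested on simulated data.

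Members, lists and tests were chosen with earlier results of these data known, and the antisense, span, strand and repeat-run classes after values were seen. Named models are up to 15 per direction past the input threshold with replicate 6 beyond every library of its construct in all 5 constructs and a mean of at least 10 counts, up to 2 without a symbol per direction, up to 5 per direction past both thresholds, up to 4 of highest level per list, 3 on each side of the threshold, and 5 of smallest p among replicates 7 to 10. Named outside the rule, after their values were seen, are Jun, mt-Co1, mt-Cytb, Actb, Gapdh and Krt8. For a named model a RIP test is printed only where at least 5 libraries of the group with the lower level reach the filter's CPM. P-values measure the spread between these libraries, which share replicate numbers across constructs. Each fit was repeated with DESeq2 (version 1.42.0), with library size as the only scale, no filter, at least 10 counts in every library, no construct block, the 13 most counted RIP models removed, each library, number or construct left out, 5 levels of number, a log2 fold change of at least 1, thinned totals and, for the library measures, each construct or number left out, added after the data were seen.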

Additional observations from a re-analysis of the deposited data

Results flagged for a closer look

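In 17 of 162 groups of libraries 1 library stood apart from the rest of its group by Dixon's criterion, which chance alone would give in about 5% of groups. Among replicate 6 libraries, Eif2d in the M141R RIP stood at 5.829 CPM (the other 4 at 5.051 to 5.254). In replicate 6 inputs, the E247A/Y260A library stood apart for Hspa5 (173.2 CPM against 121.5 to 133.7) and Ahnak (397.3 against 208.8 to 257.5). The vector input stood apart for Cnot1 (37.86 CPM against 10.19 to 17.3) and Plet1os (2062 against 1290 to 1508). In the replicate 6 RIP libraries the antisense share was 24.71% in E247A/Y260A and 25.72 to 25.92% in the others.

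Among the other inputs, CNOT7 input replicate 7 held 826768 counts (the others of that number 616416 to 650940). The 13 most counted RIP models took 14.6% of M141R input replicate 7 (10.76 to 11.3%) and 11.22% of vector input replicate 10 (8.406 to 8.77%). Mitochondrial plus-strand models took 11.32% of E247A/Y260A input replicate 9 (8.053 to 8.972%), and minus-strand models 5.965% of D40A input replicate 10 (2.627 to 2.945%).

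Among the other RIP libraries every such value came from D40A. D40A RIP replicate 9 held 10719137 counts (1484364 to 2732681 in the others). In D40A RIP replicate 10 the 13 models took 96.78% of counts (97.33 to 97.46%). Outside them, models without a symbol took 53.57% (40.8 to 43.03%), antisense models 11.08% (16.29 to 16.6%), mitochondrial plus-strand models 19.84% (2.36 to 4.209%) and minus-strand models 1.845% (0.5738 to 0.8553%).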

How the results depend on the processing

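For the models named, no alternative turned a direction past the threshold: the number of reversals was 0. Calls were lost or gained, counted over models and alternatives. In input 152 were lost and 63 gained, beside 2999 unchanged. In RIP 22 were lost and 37 gained, beside 1823 unchanged. Among replicates 7 to 10, 161 were lost and 57 gained, beside 2460 unchanged. Requiring at least 10 counts in every library, which tests fewer models, left 270 higher and 309 lower models in input, 63 and 70 in RIP, and 1026 among replicates 7 to 10. With replicate number as 5 levels there were 946 higher and 1098 lower in input and 210 higher in RIP. A log2 fold change of at least 1 kept 172 higher and 531 lower in input, a split of 24.5 to 75.5%. Thinning every input to the smallest total gave 413 higher and 487 lower. In RIP, library size alone gave 284 higher, no filter 326 higher and 1523 lower, and removal of the 13 most counted models 199 lower. Leaving out the D40A construct gave 62 higher in RIP and leaving out the vector 172. With CNOT7 input replicate 10 kept there were 471 higher and 679 lower in input and 1833 among replicates 7 to 10. DESeq2 kept 613 of 614 higher and 699 of 731 lower input models. The causes were not tested.

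Leaving out 1 library or 1 replicate number gave 442 to 766 higher and 437 to 784 lower in input, 67 to 176 higher and 174 to 388 lower in RIP, and 724 to 2432 among replicates 7 to 10, where 724 was without replicate 10. Input counts of lower models moved most without replicate 6 of D40A (476), M141R (437) or vector (476). RIP counts of higher models moved most without E247A/Y260A replicate 7 (161) or 8 (176), M141R replicate 6 (67) or 7 (173), and vector replicate 7 (166) or 10 (169), and lower RIP models without replicate 9 of all constructs (174).

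RIP library measures, tested by exact permutation with adjustment, were also run without each construct or number, chosen after the data were seen, and the same limit on a shared number holds for their p-values. Total counts were higher by 1261000 without D40A (exact adjusted p = 0.02) and by 1314000 without replicate 9 (0.03255). The share in models without a symbol was higher by 4.839 points without D40A (0.008) and by 5.141 without replicate 10 (0.00651). Without replicate 9 the number of models with a count differed by -1866 (0.03255), and counts outside the 13 models turned to 20440 higher (0.0434). Without each number in turn, the differences ran from 301400 to 1314000 in total counts, 0.3463 to 0.9323 in the share of the 13 models, -21340 to 20440 outside them, -4550 to -1866 in models with a count and 3.312 to 5.141 in the share without a symbol.

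No paired analysis was possible because replicate number is itself the factor compared, and construct is already the block. The filter on low counts decides which models enter: without it 662 higher and 1078 lower models passed in input, of which 557 and 391 were among the 614 and 731.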
